A study of Mus musculus with 6 samples.

Results

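Chemokines are small secreted proteins that guide the movement of cells, and they act through G protein-coupled receptors on the surface of the cells they attract. They are grouped by the spacing of their first cysteines into CC, CXC, CX3C and XC families, and their receptors are named after the family they bind. In the lung before birth, the homeostatic members of the family are known for the placing of vessels, progenitors and resident leukocytes, whereas the inflammatory members are mostly low until the tissue meets injury or infection. Many inflammatory chemokine genes are induced through the transcription factor NF-κB, for which CARM1, the arginine methyltransferase lacking in the knockouts, is known to be a coactivator.

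The genes described here were all those whose platform symbol is that of a CC, CXC, CX3C or XC chemokine or of one of their receptors, with the lung-specific Cxcl15 left out. They numbered 49 of the 18193 genes named by 1 symbol, and were represented by 76 probe sets (a probe set is a group of short probes against 1 transcript, giving 1 signal). The study measured total RNA of whole lung from 3 Carm1 knockout and 3 wild-type mice on Affymetrix Mouse Genome 430 2.0 arrays, 1 array for each labelled sample. The knockout labels, which also spell the gene CRAM1, give embryonic day 18.5, as does the design text for both genotypes, while neonatal is what the wild-type labels state. If the labels hold, age and genotype cannot be told apart in any difference given here. No label gives the strain, the deleted part of the gene or whether any pups shared a litter, so a p-value here covers only how these samples vary, which may be technical. In RNA of whole lung, fewer cells of a type and less RNA per cell cannot be told apart.

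Carm1 itself had a signal of 394.9, 374.0 and 510.7 in the knockout lungs, against 814.5, 678.5 and 864.7 in the wild-type lungs. The groups did not overlap, and the fitted value was 1.85-fold lower in the knockouts (limma, adjusted p = 0.105). Carm1 therefore did not pass the adjusted threshold that is used below for the chemokine genes. The position of its probe set relative to the deleted part is not known here. Control probe sets for bacterial RNA had a median signal between 6.92 and 14.1 on the 3 knockout arrays. Among the wild types the median was 579 for replicate 1, 3.77 for replicate 2 and 375 for replicate 3, so that replicates 1 and 3 carried this RNA. These are control probe sets of the array, and were not read as a measure of bacteria in the lungs. Since only wild-type arrays carried this RNA, differences that go with it are partly mixed with genotype. The defining epithelial markers of lung were tested in 8 of 8, with sums of 116568 to 128275 in the knockouts and 117627 to 150633 in the wild types. Knockout replicate 2 and wild type replicate 3 were male by their Y-linked transcripts. Differences among the arrays without bacterial RNA, 3 knockouts against wild type replicate 2, are given below for the members with values by array and for those that moved most.

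The promoters shown first are those of the neighbouring neutrophil chemokine genes Cxcl1, Cxcl2 and Cxcl3, which carry the NF-κB consensus close to the start, and those of the receptor genes Ccr6 and Cxcr4, whose signals were lower in the knockouts. Each is the 120 bases before the annotated start on the coding strand, from RefSeq, build GRCm38.p6. Capitals mark matches to the NF-κB consensus or to the TATA box (TATAAA) on either strand, where overlapping matches run together. Ccr6 has 2 starts in the table, of which the one with the consensus is shown.
Cxcl1 (chr5:90891125-90891244, + strand): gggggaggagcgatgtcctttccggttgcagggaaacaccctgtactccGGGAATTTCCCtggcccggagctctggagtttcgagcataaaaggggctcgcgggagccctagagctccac
Cxcl2 (chr5:90903779-90903898, + strand): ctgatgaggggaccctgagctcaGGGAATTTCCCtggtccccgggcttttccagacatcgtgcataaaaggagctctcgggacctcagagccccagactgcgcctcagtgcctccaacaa
Cxcl3 (chr5:90785981-90786100, + strand): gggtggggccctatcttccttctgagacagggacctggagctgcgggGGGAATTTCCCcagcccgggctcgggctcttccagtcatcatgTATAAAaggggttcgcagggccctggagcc
Ccr6 (chr17:8242406-8242525, + strand): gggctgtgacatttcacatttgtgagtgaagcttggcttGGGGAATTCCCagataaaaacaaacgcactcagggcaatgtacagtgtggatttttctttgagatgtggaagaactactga
Cxcr4 (chr1:128592300-128592419, - strand): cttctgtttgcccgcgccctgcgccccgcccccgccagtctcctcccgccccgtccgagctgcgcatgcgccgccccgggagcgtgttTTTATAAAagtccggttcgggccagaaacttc

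A promoter sequence was found for 36 of the 49 genes. Within the 250 bases before the start, 9 of the 36 held the NF-κB consensus on either strand, namely Ccl9, Ccl20, Ccr3, Ccr6, Ccrl2, Cxcl1, Cxcl2, Cxcl3 and Cxcl10, and 4.46% of all 27025 genes with a promoter did. The TATA box was found in 10 of the 36 and in 14.33% of all genes. Cxcl1, Cxcl2 and Cxcl3 are related copies and share much of this sequence, so they are not separate cases. A match is a description of the letters and not evidence of binding.

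No chemokine or chemokine receptor gene passed the adjusted threshold in either direction, and neither did Carm1 itself. Of the 76 probe sets, 35, standing for 22 genes, had a geometric mean above the filter signal of 59.7 and were tested with limma. An arithmetic mean can lie above this signal in an untested gene, as for Ccl2 (69.4). After adjustment over all 27022 tested probe sets, 0 of the 35 were under 0.05, where 0.0296% of all tested probe sets were, and the smallest adjusted p was 0.281. At an unadjusted p under 0.05, 2 probe sets were higher in the knockouts (5.71% of 35, against 7.32% of all tested) and 3 were lower (8.57%, against 6.31%). The knockout arrays lay wholly above the wild types at 3 of the 35 probe sets (8.57%, against 10.7% of all) and wholly below them at 3 (8.57%, against 9.36%). These shares lie near those of all tested probe sets. The 5 probe sets at an unadjusted p under 0.05 became 0 when knockout replicate 3 was left out and 2 when wild type replicate 3 was. Leaving out knockout replicate 2 gave 3, as did leaving out wild type replicate 1.

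Over the 22 genes with a tested probe set (1 each, the one of highest mean), 9 were higher and 13 lower in the knockouts. The direction of 7 of them, Ccl9, Ccl12, Ccl28, Ccr1, Ccr2, Cxcl14 and Cxcl17, turned when 1 array was left out or on the arrays without bacterial RNA. Their median log2 difference was -0.062, and the median over all 12947 tested genes was 0.029. The median size of the difference, taken without its sign, was 0.298 for the chemokine genes and 0.181 for all genes. Signals were also lower, with a median of 206 over the 35 tested chemokine probe sets against 385 over all tested probe sets. These 2 medians count every tested probe set and not 1 a gene. The 1 gene whose difference reached 1 log2 unit was Cxcr3.

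**Figure D1:**
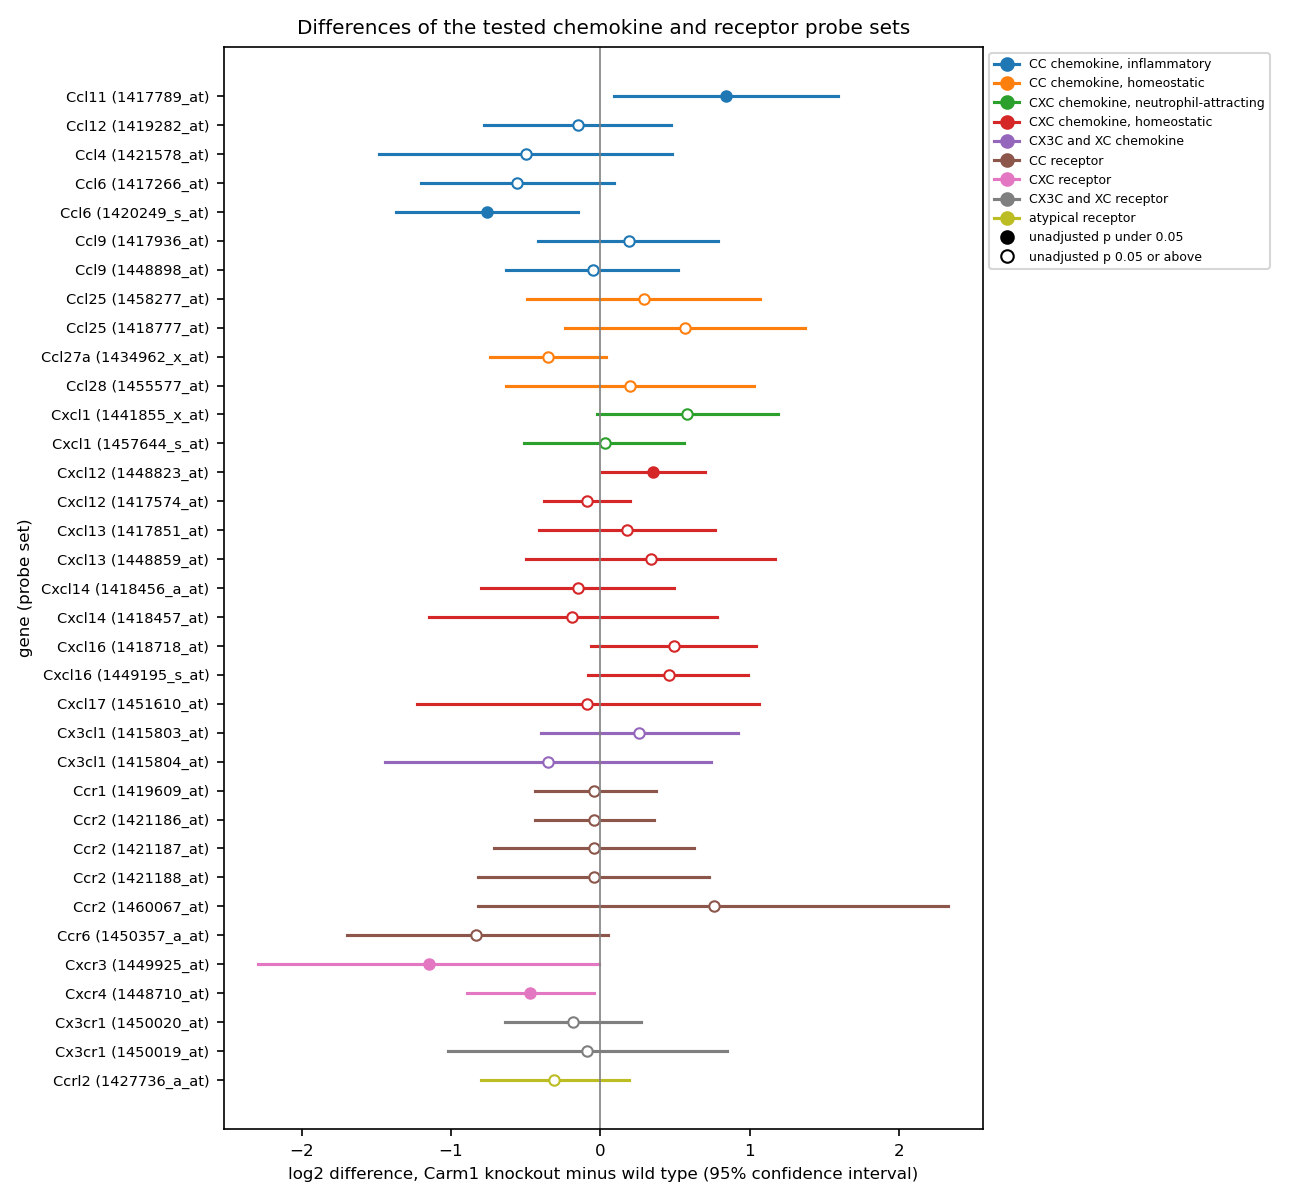
Log2 difference (Carm1 knockout minus wild type, x axis) with its 95% confidence interval for the 35 tested probe sets (y axis), coloured by role; filled points have an unadjusted p under 0.05. The 5 filled points are Ccl11 and 1 probe set of Cxcl12 on the higher side, and 1 probe set of Ccl6, Cxcr3 and Cxcr4 on the lower side.

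Among the inflammatory CC chemokines, 5 of 15 genes were tested. Ccl11 encodes eotaxin, which attracts eosinophils through CCR3. It had 191.2, 402.9 and 352.7 in the knockout lungs, against 223.7, 120 and 177.3 in the wild-type lungs. Knockout replicates 2 and 3 lay above every wild type, while knockout replicate 1 lay between them. The fitted difference was 1.79-fold higher (95% confidence interval 1.06 to 3.00, unadjusted p = 0.0321, adjusted p = 0.321). Its log2 value of 0.84 became 1.32 among the arrays without bacterial RNA, 1.16 without knockout replicate 1 and 0.59 without wild type replicate 2. Ccr3, the receptor of eotaxin, had no signal above 45.8 on any array.

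Ccl6, a chemokine of macrophages and other myeloid cells in mouse, was measured by 2 probe sets that were both lower. At the one of higher mean the signals were 761.4, 547.3 and 721.4 in the knockouts, against 1638, 751.6 and 774.4 in the wild types. Wild type replicate 1 stood far above the other arrays, and the groups overlapped through knockout replicate 1. The fitted value was 1.47-fold lower (95% confidence interval from 2.30-fold lower to 1.07-fold higher, adjusted p = 0.439), a log2 difference of -0.56 that was -0.19 without wild type replicate 1. At the other probe set the knockouts had 310.2, 253.2 and 213.2, against 629.3, 303.1 and 426.9 in the wild types, 1.69-fold lower (unadjusted p = 0.0205, adjusted p = 0.281), and knockout replicate 1 again lay just above the lowest wild type. Among the arrays without bacterial RNA the log2 differences of the 2 probe sets were -0.17 and -0.24.

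Ccl9 is the coding gene next to Ccl6 and also a myeloid chemokine. Its signals were 1265, 618.6 and 595.7 in the knockouts, against 696.5, 734.6 and 620.2 in the wild types, so that knockout replicate 1 alone was high. The fitted value was 1.14-fold higher, with a 95% confidence interval from 0.749 to 1.72, and the second probe set gave 0.964-fold. The log2 difference of 0.19 became -0.17 without knockout replicate 1. Ccl12, a ligand of CCR2, was at 0.900-fold (0.583 to 1.39). Ccl4, which attracts monocytes and lymphocytes, was at 0.706-fold (0.358 to 1.39). Neither passed, and their intervals allow a change of either sign.

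The CC chemokine genes of chromosome 11 lie in 2 runs with no other coding gene between the members, by the gene order of GRCm38.p6. In the run Ccl2, Ccl7, Ccl11, Ccl12, Ccl8, Ccl1, the genes tested were Ccl11 and Ccl12, with log2 differences of 0.84 and -0.15. In the run Ccl5, Ccl9, Ccl6, Ccl3, Ccl4, they were Ccl9, Ccl6 and Ccl4, with 0.19, -0.56 and -0.50. None of these passed the adjusted threshold. In each run 1 sign rests on single arrays, since Ccl9 turned to -0.17 and Ccl12 to 0.02 without knockout replicate 1.

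**Figure D2:**
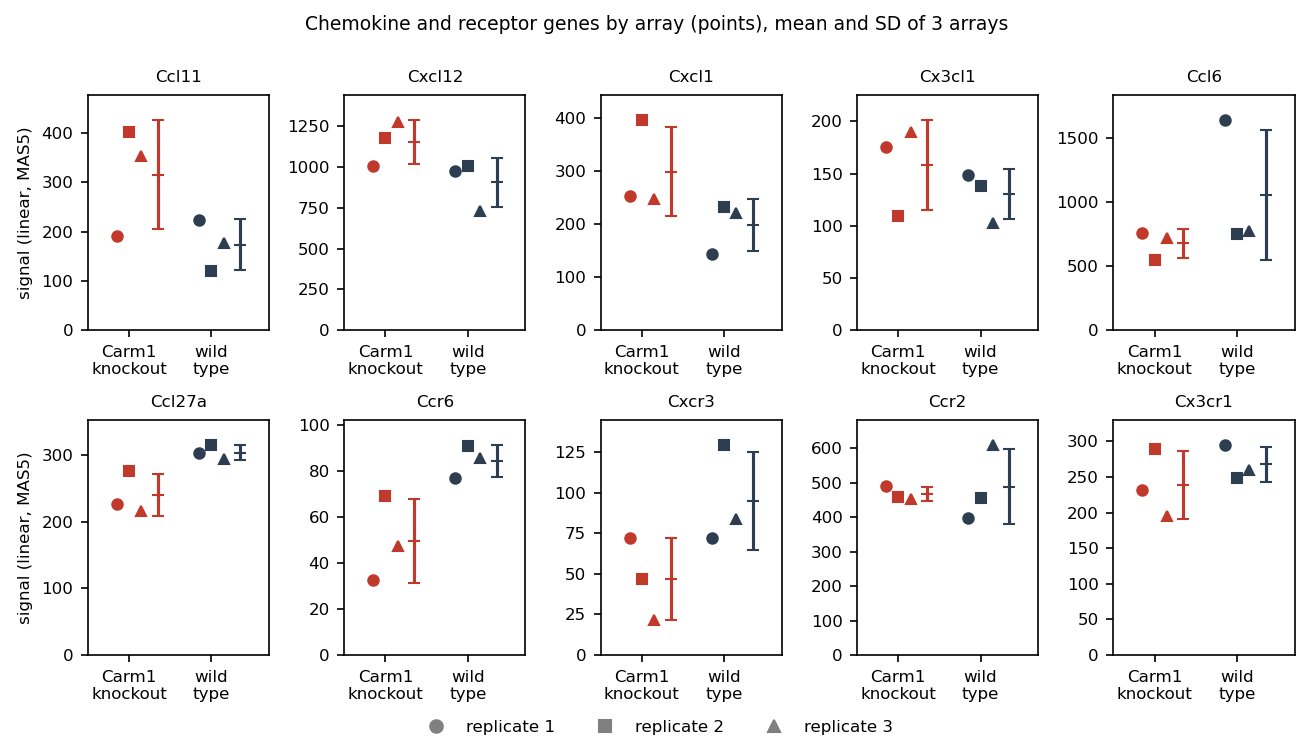
Signal (linear, y axis) of 10 chemokine and receptor genes on each array, at the probe set of highest mean; points are arrays, with the mean and SD of the 3 arrays beside them, Carm1 knockout left of wild type. The groups lie apart for Ccl27a, Ccr6 and Cxcr3 (knockouts below) and for Cxcl12 and Cxcl1 (knockouts above), and wild type replicate 1 stands out for Ccl6.

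The homeostatic CC chemokines draw lymphocytes to epithelia and to the thymus. Ccl27a was at 226.6, 276.1 and 216.5 in the knockout lungs, against 302.2, 315.0 and 293.7 in the wild-type lungs. All 3 knockouts lay below all 3 wild types, at 0.785-fold with a 95% confidence interval from 0.599 to 1.03 (adjusted p = 0.421). This probe set may cross-hybridise, since Ccl27a has near-identical copies in the mouse genome. Ccl25, the thymic ligand of CCR9, was at 1.22-fold and 1.48-fold at its 2 probe sets, and Ccl28 at 1.15-fold, with intervals that include 1. At the second probe set of Ccl25 the wild-type mean, 53, was itself under the filter. Among the arrays without bacterial RNA the log2 difference of Ccl25 was 0.80, against 0.29 over all arrays, at the probe set of higher mean, and that of Ccl28 was 0.66, against 0.20.

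Cxcl12 attracts progenitors and supports vessel growth through its receptor CXCR4, and it is also bound and removed by ACKR3, an atypical receptor that lies outside the list of 49. At the probe set of higher mean, Cxcl12 had 1008, 1175 and 1273 in the knockouts, against 977.9, 1006 and 733.2 in the wild types. The groups did not overlap, but the nearest arrays, knockout replicate 1 and wild type replicate 2, were almost level. The fitted value was 1.28-fold higher (95% confidence interval 1.00 to 1.63, unadjusted p = 0.0472, adjusted p = 0.361). Its log2 difference of 0.35 was 0.19 among the arrays without bacterial RNA and 0.21 without wild type replicate 3. The second probe set gave 726.3, 671.1 and 768.7 in the knockouts, against 820.7, 677.1 and 806.5 in the wild types, or 0.942-fold, a log2 difference of -0.09 that turned to 0.09 among the arrays without bacterial RNA. The difference between the 2 probe sets, 0.44 on the log2 scale, had an exact two-sided permutation p of 0.2, a test chosen after the values were seen, and the smallest p that 3 against 3 arrays allow is 0.1. The third probe set, with a geometric mean under the filter, had 22.1, 79.7 and 6.97 in the knockouts, against 101.6, 91.0 and 115.5 in the wild types. Over all arrays the probe sets of Cxcl12 had values of both signs.

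Cxcr4 was measured by 1 probe set, with 972.5, 602.4 and 786.4 in the knockout lungs, against 1250, 946.8 and 1024 in the wild-type lungs. Knockout replicates 2 and 3 lay below every wild type, and knockout replicate 1 above 1 of them. The fitted value was 1.38-fold lower (95% confidence interval 1.03 to 1.85, unadjusted p = 0.0343, adjusted p = 0.326). The log2 difference of -0.47 was -0.29 among the arrays without bacterial RNA and also -0.29 without knockout replicate 2. Ackr3 had 1842, 2169 and 2306 in the knockouts, against 1322, 1575 and 1759 in the wild types, 1.36-fold higher with no overlap (adjusted p = 0.230). None of the 3 genes of this axis passed.

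**Figure D3:**
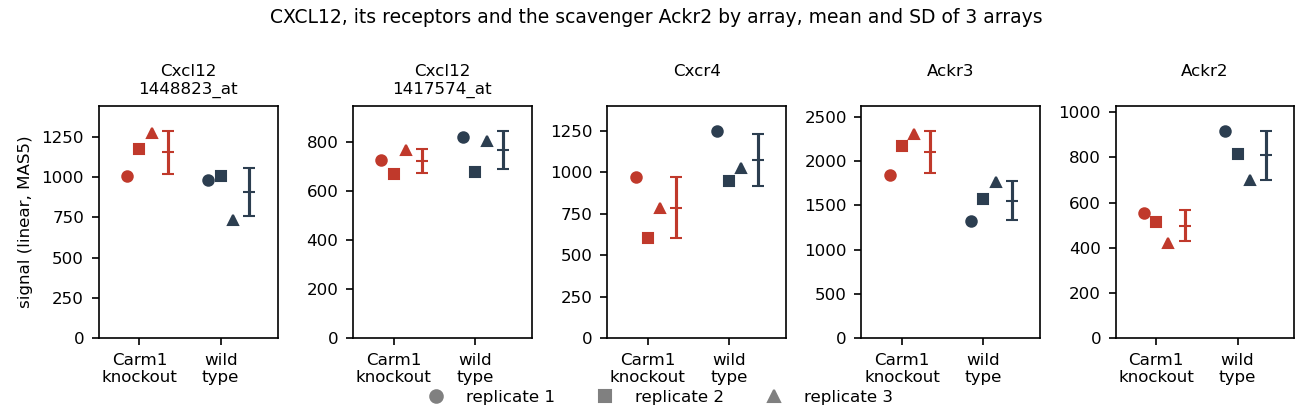
Signal (linear, y axis) of the 2 tested probe sets of Cxcl12, of Cxcr4 and of the scavenging receptors Ackr3 and Ackr2 on each array, with the mean and SD of the 3 arrays, Carm1 knockout left of wild type. The knockouts lie above the wild types for Ackr3 and below them for Ackr2, and for 1 of the 2 probe sets of Cxcl12 the groups lie apart while for the other they overlap.

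The other homeostatic CXC chemokines were Cxcl13, which attracts B cells, Cxcl14, Cxcl16, which is made as a membrane protein and shed as the ligand of CXCR6, and Cxcl17. Cxcl16 had 185.0, 160.0 and 164.4 in the knockouts, against 151.0, 113.9 and 109.7 in the wild types, at the probe set of lower mean, and the groups did not overlap there. Its 2 probe sets were at 1.40-fold (0.956 to 2.06) and 1.37-fold (0.949 to 1.98), with adjusted p of 0.424 and 0.438. The remaining probe sets of Cxcl13, Cxcl14 and Cxcl17 lay between 0.878-fold and 1.26-fold, with overlapping groups. Single arrays set these values, since the log2 difference of Cxcl17 ran from -0.69 without wild type replicate 3 to 0.42 without wild type replicate 1. That of Cxcl14 was -0.78 among the arrays without bacterial RNA, against -0.15 over all arrays, and 0.16 without wild type replicate 2.

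Of the 4 neutrophil-attracting chemokine genes among the 49, Cxcl1 alone was tested. It had 252.8, 396.4 and 248.4 in the knockouts, against 143.1, 232.1 and 222.2 in the wild types, at the probe set of highest mean, which may cross-hybridise. All 3 knockouts lay above all 3 wild types (log2 difference 0.58, adjusted p = 0.384), and among the arrays without bacterial RNA the log2 difference was 0.33. At the second probe set the groups overlapped, with 131.7, 179.2 and 131.6 in the knockouts, against 149.1, 128.5 and 153.0 in the wild types, or 1.02-fold. Between the 2 probe sets the log2 differences were 0.56 apart (exact permutation p = 0.1, two-sided and chosen after the values were seen), the smallest p possible. The third probe set, under the filter, had 76.9, 84.6 and 53.1 in the knockouts, against 45.2, 57.3 and 26.6 in the wild types, with overlap. Cxcl2, whose promoter is printed above beside that of Cxcl1, lay under the filter, at 7.49, 14.4 and 1.60 in the knockouts, against 30.8, 40.1 and 34.6 in the wild types. The interferon-induced Cxcl9, Cxcl10 and Cxcl11, ligands of CXCR3, had no tested probe set and no signal above 66.5.

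Cxcr3, a receptor of activated T cells and natural killer cells, had 71.8, 46.9 and 21.3 in the knockouts, against 72.3, 129.3 and 83.7 in the wild types. The groups did not overlap, though knockout replicate 1 and wild type replicate 1 were almost level. The fitted value was 2.22-fold lower (0.451-fold, 95% confidence interval 0.205 to 0.994, unadjusted p = 0.0486, adjusted p = 0.364). Its log2 difference of -1.15 was -0.67 without knockout replicate 3 and -1.64 among the arrays without bacterial RNA, and the knockout mean, 46.7, was itself under the filter. Ccr6, the receptor of CCL20, had 32.6, 68.9 and 47.5 in the knockouts, against 76.8, 90.5 and 85.4 in the wild types, wholly apart at 0.564-fold (0.307 to 1.04, adjusted p = 0.394). The knockout mean of Ccr6, 49.7, was also under the filter, so that its probe set was tested only through its wild-type signals. Ccl20 had 34.5, 25.9 and 108.6 in the knockouts, against 15.2, 2.82 and 6.34 in the wild types, all but 1 of them under the filter.

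At the probe set of highest mean, the receptors of monocytes and macrophages were nearly level between the genotypes. Ccr2, the receptor that brings monocytes into tissue, had 491.8, 459.0 and 452.4 in the knockouts, against 399.0, 455.7 and 609.7 in the wild types, at 0.973-fold (95% confidence interval 0.739 to 1.28, adjusted p = 0.947). Its next 2 probe sets both gave 0.971-fold, and the fourth, with the widest spread, gave 1.69-fold (0.566 to 5.04). Among the arrays without bacterial RNA the log2 differences of the 4 probe sets were 0.04, 0.30, 0.46 and 2.39, and wild type replicate 2 had the lowest signal of the wild types at the last 3. Ccr1 was at 0.976-fold (0.736 to 1.29). Its second probe set, with a geometric mean under the filter, had 52.3, 27.6 and 6.59 in the knockouts. The wild types had 58.8, 81.3 and 44.6 there, so that the groups overlapped (2.82-fold lower in the knockouts). Cx3cr1, the fractalkine receptor of monocytes and macrophages, had 231.2, 289.2 and 195.8 in the knockouts, against 295.0, 248.3 and 260.4 in the wild types, at 0.882-fold (0.644 to 1.21). Its second probe set gave 0.941-fold (0.492 to 1.8). These intervals do not show that the levels are equal, but for Ccr1, Ccr2 and Cx3cr1 at their main probe sets they leave out changes beyond 1.36-fold, 1.35-fold and 1.55-fold in the lower direction. Cx3cl1, the membrane-bound ligand of CX3CR1, had 175.2, 109.1 and 190.0 in the knockouts, against 148.8, 138.4 and 103.2 in the wild types, at 1.20-fold (0.757 to 1.89), and 0.784-fold at its second tested probe set. Ccrl2, an atypical receptor that presents chemerin, was at 0.809-fold (0.573 to 1.14).

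For 27 genes no probe set passed the filter. They were Ccl1, Ccl2, Ccl3, Ccl5, Ccl7, Ccl8, Ccl17, Ccl20, Ccl22, Ccl24, Cxcl2, Cxcl3, Cxcl5, Cxcl9, Cxcl10, Cxcl11 and Xcl1 among the ligands, and Ccr3, Ccr4, Ccr7, Ccr8, Ccr9, Ccr10, Cxcr2, Cxcr5, Cxcr6 and Xcr1 among the receptors. As a measure of the signal with no target present, 27 bacterial control probe sets on the 4 arrays without bacterial RNA had a median of 7.21 and a 90th percentile of 26.5. The 41 untested chemokine probe sets had a median signal of 21.8 and none above 126.0. That highest value was of Ccl2, the main ligand of CCR2, which had 20.0, 64.2 and 126.0 in the knockouts, against 116.9, 54.9 and 34.1 in the wild types, with full overlap. Ccr7, the receptor that leads cells to lymph nodes, had 6.56, 3.81 and 16 in the knockouts, against 23.8, 21.2 and 5.98 in the wild types. Cxcr2 had 40.3, 20.7 and 13.3 in the knockouts, against 5.79, 42.4 and 48.3 in the wild types. At the probe set of highest mean, Cxcr5, the receptor of CXCL13, exceeded this 90th percentile on all 6 arrays, and 5 genes (Ccl2, Ccl8, Cxcl3, Cxcl10 and Cxcl11) did on 5. The other 21 genes exceeded it on 4 arrays or fewer.

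Of the 41 untested probe sets, 1 had the knockouts wholly above (Ccl20) and 3 wholly below (Ccl17, Cxcl2 and the third of Cxcl12), where 5.73% and 4.39% of all 18015 untested probe sets did. Ccl17, a ligand of CCR4, had 6.02, 47.6 and 13.3 in the knockouts, against 113.8, 49.2 and 49.1 in the wild types. In a fit with no filter, the adjusted p of Ccl20, Cxcl2 and Ccl17 was 0.337, 0.377 and 0.438.

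**Figure D4:**
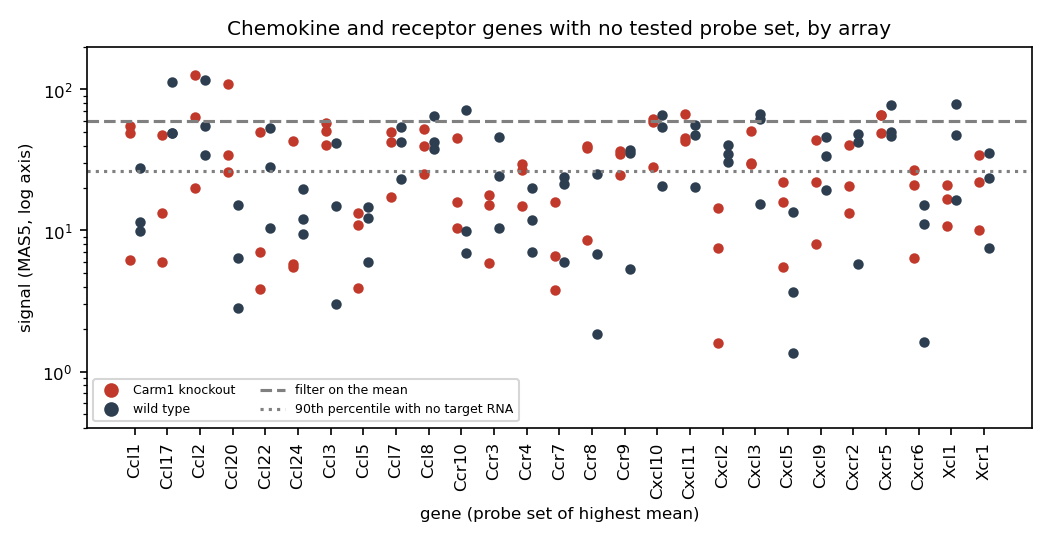
Signal (log axis) on each array for the 27 genes with no tested probe set, at the probe set of highest mean, Carm1 knockout left of wild type for each gene. The dashed line is the filter on the geometric mean (59.7) and the dotted line the 90th percentile with no target RNA (26.5). Most points lie under the dashed line in both genotypes, and the groups lie apart for Ccl17, Ccl20 and Cxcl2.

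Scavenging receptors and related ligands were listed with 16 genes, Ccrl2 counted among them, of which 14 were tested, 7 higher and 7 lower, with a median log2 difference of -0.03. At an unadjusted p under 0.05 they counted 2 higher (14.3%, against 7.32% of all tested probe sets) and 1 lower (7.14%, against 6.31%), and 0 passed the adjusted threshold. Each list in this paragraph counts 1 probe set a gene, the one of highest mean, while the shares of all count every tested probe set. The shares are therefore not strictly alike. Ackr2, which removes inflammatory CC chemokines, had 554.7, 514.6 and 421.2 in the knockouts, against 916.4, 814.4 and 700.5 in the wild types, with no overlap (1.63-fold lower, adjusted p = 0.137). Mif, a cytokine that can also bind CXCR4, was 1.37-fold higher with no overlap (adjusted p = 0.165). Genes of receptor signalling and adhesion numbered 35 tested of 39, with 14 higher and 21 lower and a median of -0.06. Of these, 4 were lower at an unadjusted p under 0.05 (11.4%, against 6.31% of all), namely Rhoa, Stat3, Itgb1 and Icam1, at 1.27-fold, 1.35-fold, 1.21-fold and 1.34-fold lower, and 0 passed. Of 21 inducers of chemokine genes 13 were tested, with a median of -0.05, and 3 were lower at an unadjusted p under 0.05 (23.1%, against 6.31% of all). They were the cytokine Il33 (1.73-fold lower), the receptor Tlr2 (1.43-fold) and the interferon factor Irf7 (1.72-fold), with adjusted p between 0.181 and 0.351. The cytokines Il6, Tnf, Ifng, Il4 and Il13 had no tested probe set.

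Markers of the cells that make or carry these genes are given beside them, and 0 of them passed the adjusted threshold. T cell markers summed to between 152.5 and 190.4 in the knockouts and between 304.7 and 393.2 in the wild types, with 1 of 9 on the array tested and the defining Cd3d, Cd3e and Cd3g under the filter. This stands beside the lower signal of Cxcr3. Natural killer cell markers, also beside Cxcr3, had overlapping sums of 309.1 to 633.6 in the knockouts and 512 to 538.4 in the wild types. Of the 3 tested markers 2 were lower, while Prf1 was higher with the groups apart. Ncr1, Nkg7 and Klrd1 of that list were under the filter. Dendritic cell markers, beside Ccr6, were lower in 5 of 5 tested, with overlapping sums of 2001 to 2741 in the knockouts and 2440 to 4608 in the wild types. Flt3, Itgax, Siglech and Cd209a of that list were under the filter. B cell markers went the other way, higher in 3 of 3 tested of 8 on the array, with overlapping sums of 697.3 to 934.8 in the knockouts and 614.8 to 881.7 in the wild types. Endothelial markers, beside Cxcr4, summed to between 14000 and 16561 in the knockouts and between 18290 and 20840 in the wild types, and 7 of 8 were lower. Fibroblast markers, beside Cxcl12 and Ccl11, summed to between 67925 and 83293 in the knockouts and between 62538 and 69265 in the wild types, so that the sums overlapped, and 5 of 7 were higher. Macrophage markers, beside Ccl6, Ccr2 and Cx3cr1, were higher in 7 of 11 and lower in 4, with overlapping sums of 22989 to 35184 in the knockouts and 32386 to 45087 in the wild types. Most of each sum was Lyz2, with 14293 to 24717 in the knockouts and 24713 to 37259 in the wild types. C1qa, C1qb and Aif1 were among the markers that were higher. Monocyte markers were higher in 5 of 7, with overlapping sums of 3509 to 4529 in the knockouts and 3454 to 4230 in the wild types. Of 4 eosinophil markers, the cells that Ccl11 attracts, 1 was tested, with a log2 difference of -0.03. Mast cell and basophil markers were higher in 8 of 9, with sums of 5790 to 12152 in the knockouts and 4073 to 4953 in the wild types. Lymphatic endothelial markers were lower in 6 of 6, with sums of 6092 to 8421 in the knockouts and 9329 to 12372 in the wild types. Neutrophil markers were higher in 9 of 9, with 0 at an unadjusted p under 0.05. Their sum was 48781 in knockout replicate 1, the array with the high Ccl9, and 12453 and 15217 in the other knockouts, against 13537, 21226 and 6910 in the wild types. The part of any of these cell types in the chemokine values was not tested.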

How the data were processed

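The authors deposited linear intensity values for each probe set. The submitters' processing notes name MAS5; its version, background settings and detection calls are not given in the sources used here. Every array had the same mean after trimming 2% at each end (500), so arrays had been scaled to 1 level. Of 45101 probe sets, 34945 had 1 platform symbol, 932 had several and were not named, and 64 were controls. List genes were matched after updating symbols through a RefSeq gene table (GRCm38.p6), which also gave gene order. Probe sets with a mean log2 value above the 40th percentile were tested, knockout minus wild type, with limma 3.58.1 (lmFit, eBayes with an intensity trend) in R 4.3.3 on log2 values, two-sided, with Benjamini-Hochberg adjustment over all tested probe sets at 0.05. Folds are ratios of geometric means. The genes with values by array were those at an unadjusted p under 0.05 or with groups apart, at the probe set of highest mean, plus 11 set ligands and receptors, of which Ccl21 had no probe set with 1 symbol. Ccl6 and Cxcl16 (each for its second probe set) and Ccl9, Ccl17 and Ccl20 were added after their values were seen. From each other list at most 4 tested genes were named, and some genes under the filter were named besides. The members and lists were chosen with earlier results of these data known. Same-numbered arrays of the 2 genotypes did not deviate together (correlations -0.14, -0.38 and -0.01). The fit was tested on simulated data. Only 3 arrays a group limit the precision. Levels of different probe sets were not compared. The alternatives covered the filter, scaling, pseudocount, variance model, array left out, replicate block, bacterial RNA and sex. Directions of all tested members with 1 array left out, or without the bacterial RNA arrays, were taken after the data were seen.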

Additional observations from a re-analysis of the deposited data

How the results depend on the processing

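The count of chemokine probe sets past the adjusted threshold was 0 under every alternative run, and the smallest adjusted p of the 10 genes followed across alternatives was 0.199, for Ccl11. The count at an unadjusted p under 0.05, 5 in the main setting, was 8 of 76 with no filter, 3 with bacterial RNA as a term and 3 on the arrays without it, and between 0 and 6 when 1 array was left out. With quantile normalization, a common median, no intensity trend or robust variance it was 6, with log2(value + 16) or sex as a term 5, and with the 60th percentile filter 4 of 18. The replicate block gave 4, and since same-numbered arrays did not deviate together it is no pairing from the design. The median log2 difference over the 22 genes, -0.062, ran from -0.142 without wild type replicate 3 to 0.057 without wild type replicate 1, and was 0.024 with bacterial RNA as a term. Single arrays' medians varied with an SD of 0.134 within a group. Changing the filter or the variance model, or adding the replicate block or sex, left each log2 difference as it was, so no direction could turn there. Bacterial RNA as a term and the arrays without it gave the same log2 differences. Of 167 values of the 10 genes followed across alternatives, those repeats included, 164 kept the direction. The others were all of Ccr2, which ran from -0.17 without wild type replicate 1 to 0.13 without wild type replicate 3 and was 0.04 with bacterial RNA as a term or without those arrays, against -0.04, and the cause was not tested. Of all 35 tested probe sets, 17 turned direction when 1 array was left out or on the arrays without bacterial RNA. Signals near those of absent targets limit what can be said of most of the 27 untested genes.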
